A study of Mus musculus with 8 samples.

Results

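Capillary pericytes were selected from single-cell libraries of mouse cortex by their transcripts. A barcode was kept when it held at least 500 genes and under 15% of its unique molecular identifiers (UMIs, each counting 1 captured mRNA molecule) came from mitochondrially encoded genes. A kept cell was called a capillary pericyte when Vtn, which encodes vitronectin, reached 30 UMIs per 10000 and 4 other sums stayed low: the contractile genes Acta2, Tagln, Myh11 and Myl9 under 20, the endothelial genes Cldn5, Flt1 and Pecam1 under 20, the microglial genes C1qa, C1qb and Ctss under 20, and Col3a1 with Ifitm1 under 10. This gave 744 cells of 50254 kept, or 1.48%, with 1831244 UMIs among them. The genes of this gate chose the cells, so their levels are a description and support nothing below.

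Capillary pericytes are the mural cells of the smallest brain vessels. They lie inside the vascular basement membrane, on the outer side of the endothelial tube, and need PDGF-BB from the endothelium, sensed by the receptor PDGFRβ, to stay there. They carry an ATP-sensitive potassium channel made of the subunits Kir6.1 (Kcnj8) and SUR2 (Abcc9), which links their membrane potential to metabolism. The basement membrane around them is built on laminins, trimers of 1 α, 1 β and 1 γ chain: laminin α4 and α5 are the α chains of the endothelial side, and α2 is the chain of the parenchymal side. Cells bind laminins through integrins, dystroglycan and the receptor BCAM.

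The study compared cortex of 8-week-old mice that lacked laminin α4 (Lama4-/-, here the Lama4 KO) or laminin α5 in the Tek-Cre lineage (Tek-Cre:Lama5-/-, here the Lama5 KO), each with WT mice of its own experiment; no other allele and no treatment is named. Tek drives Cre in endothelial and some blood cells, so the Lama5 gene of pericytes themselves is not the intended target. The cells of each group came from 3 brains pooled, were freed with papain, DNase and Liberase and were sequenced with a 3′ droplet kit. Each of the 4 groups has 2 deposited samples, but the 2 Lama4 KO files are identical and were counted as 1 library, which leaves 7 libraries and no replicate for that group. Libraries of a group share a pool, so p-values measure the spread between libraries, which may be technical.

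The libraries held 5332 to 8556 kept cells each. In the Lama4 experiment pericytes numbered 143 and 122 in the WT libraries and 129 in the KO library. In the Lama5 experiment they numbered 82 and 88 (WT) and 94 and 86 (KO). Summed pericyte UMIs ran from 188894 to 381826 per library, with medians of 2118.5 to 2537 UMIs and 1124 to 1377 genes per cell. No pericyte barcode was shared between libraries, and no pair of libraries shared more than 24 kept barcodes. No doublet caller was run; the upper limits of the gate are the only guard against a pericyte captured with another cell.

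Some cells of the gate stood apart. Dcn, Lum and Col1a1, which mark fibroblasts, summed to at least 10 UMIs per 10000 in 18 of the 350 pericytes of the Lama5 experiment (2 and 8 of them WT, 4 and 4 KO) and in 1 of 394 of the Lama4 experiment. Of those 18, 16 had a UMI for at most 1 of Atp13a5, Kcnj8, Abcc9 and Pdgfrb, the markers that the gate did not use. All 8 fibroblast markers were detected, among them Slc6a13, which pericytes also hold, and they summed to 912 and 672 CPM (counts in 1000000) in the Lama5 KO, 944 and 2713 CPM in its WT, and 393 to 450 CPM in the Lama4 experiment. Haemoglobin-rich cells numbered 3 in the Lama4 KO library and 1 in the second Lama5 KO library, and 4 cells of the Lama4 KO library were rich in Ttr, a transcript of the choroid plexus. A trimmed gate, chosen after seeing the data, asked for at least 2 of the 4 markers and set limits on fibroblast, astrocyte, oligodendrocyte, haemoglobin and Ttr transcripts; it left 376 and 308 cells. Its fibroblast sum was 286 to 453 CPM in every library, with Lum, Col1a1 and Pdgfra at 0. Results that rest on the cells it removes are given with and without them.

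The 4 remaining pericyte markers upheld the label for most cells. Of the 744, 657 (88.3%) had a UMI for at least 3 of the 4 and 469 (63.0%) for all 4, while 7 had none and 25 had 1. Just inside the Vtn threshold, at 30 to 40 UMIs per 10000, 57.9% of 19 cells had at least 3 markers, and just outside it, at 20 to 30, 28.0% of 25 cells did. At Vtn of 100 or more the share was 92.3% of 556. The Col3a1 and Ifitm1 limit made no such step: at 5 to 10 UMIs per 10000, 90.2% of 266 cells had at least 3 markers, and just outside it, at 10 to 15, 91.7% of 133 did.

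The genes that stood highest in pericytes over other gated cells were led by genes of transport across membranes. The levels are CPM of counts summed over the pericytes of a library. A 3′ method counts each molecule once whatever its length, so no scaling by length was made. Whether transcripts of different genes were captured equally was not tested, so an order among genes is a description. Abcc9 stood at 1247 and 1238 CPM in the WT and 1061 CPM in the KO library of the Lama4 experiment. In the Lama5 experiment its WT libraries had 1402 and 1185 CPM and its KO libraries 1544 and 1255. The Lama4 KO library was the lowest, the other groups overlapped, and the level in endothelial cells was 0.343 to 1.19 CPM. Kcnj8, its channel partner, stood at 1645 and 1601 CPM (WT) and 1521 CPM (KO) in the Lama4 experiment and at 1201 and 1028 CPM (WT) and 879 and 1122 CPM (KO) in the other. All 3 libraries of the Lama4 experiment were higher than the 4 others, and endothelial cells had 0.357 to 1.16 CPM. Both genes lie side by side on chromosome 6 (Kcnj8 at 142564837 to 142571614, Abcc9 at 142587862 to 142702315, GRCm38, minus strand). Atp13a5, a P5-type ATPase of pericytes, stood at 2197 and 2174 CPM (WT) and 1933 CPM (KO), then at 1141 and 1042 CPM (WT) and 1297 and 1106 CPM (KO), with endothelial cells at 0.789 to 1.86. A UMI for Atp13a5 was found in 75.0% to 96.7% of pericytes and in 0.314% to 1.37% of endothelial cells. With each cell thinned to 1000 UMIs the shares were 60.7% to 90.7% and 0.0748% to 0.178%.

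The neighbouring mural cells shared these genes unequally. The cells that met the gate but for Col3a1 and Ifitm1, 318 in number, held the pericyte genes at like levels. Of the 1094 genes at 100 CPM or more in the pericytes of every library, none had a lowest pericyte level above its highest level in all other gated types, these cells included. Among the closest were the signalling regulator Rgs4 (ratio of lowest pericyte level to highest other level 0.845) and the transcription factor Zeb1 (0.838). With those cells left out, a comparison added after seeing the data, 161 genes did so and 53 stood over 2 times the highest level of any other gated type. The types left were smooth muscle, endothelial cells, microglia, astrocytes, oligodendrocytes and choroid plexus. Fibroblasts were not gated, so these ratios do not set pericytes against them, and Slc6a13 is also one of the fibroblast markers. Abcc9 led at 83.6 times, followed by Slc6a13, a GABA and taurine transporter, at 66.9, Kcnj8 at 40.8, Ggt1, γ-glutamyltransferase, at 27.8, Atp13a5 at 22.0, the phospholipase Pla1a at 21.5 and Nodal, a TGF-β family ligand, at 18.2. Then came Spp1 at 11.7, Uchl1 at 10.5, Colec12 at 9.60, the proline transporter Slc6a20a at 9.06, Art3 at 7.42, the extracellular superoxide dismutase Sod3 at 7.34, Tmem45a at 6.73 and the guidance cue Ntn1 at 6.21. Spp1 lay in few cells: 8.20% to 23.3% of pericytes had a UMI for it, and 1 cell held 19.6% to 42.5% of its counts in each library. Smooth muscle cells had Kcnj8 at 6.34 to 21.5 CPM and Abcc9 at 3.51 to 12.7, against Pdgfrb at 305 to 496. The receptor gene thus marked both mural types, at 1376 to 2651 CPM in pericytes.

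**Figure D1:**
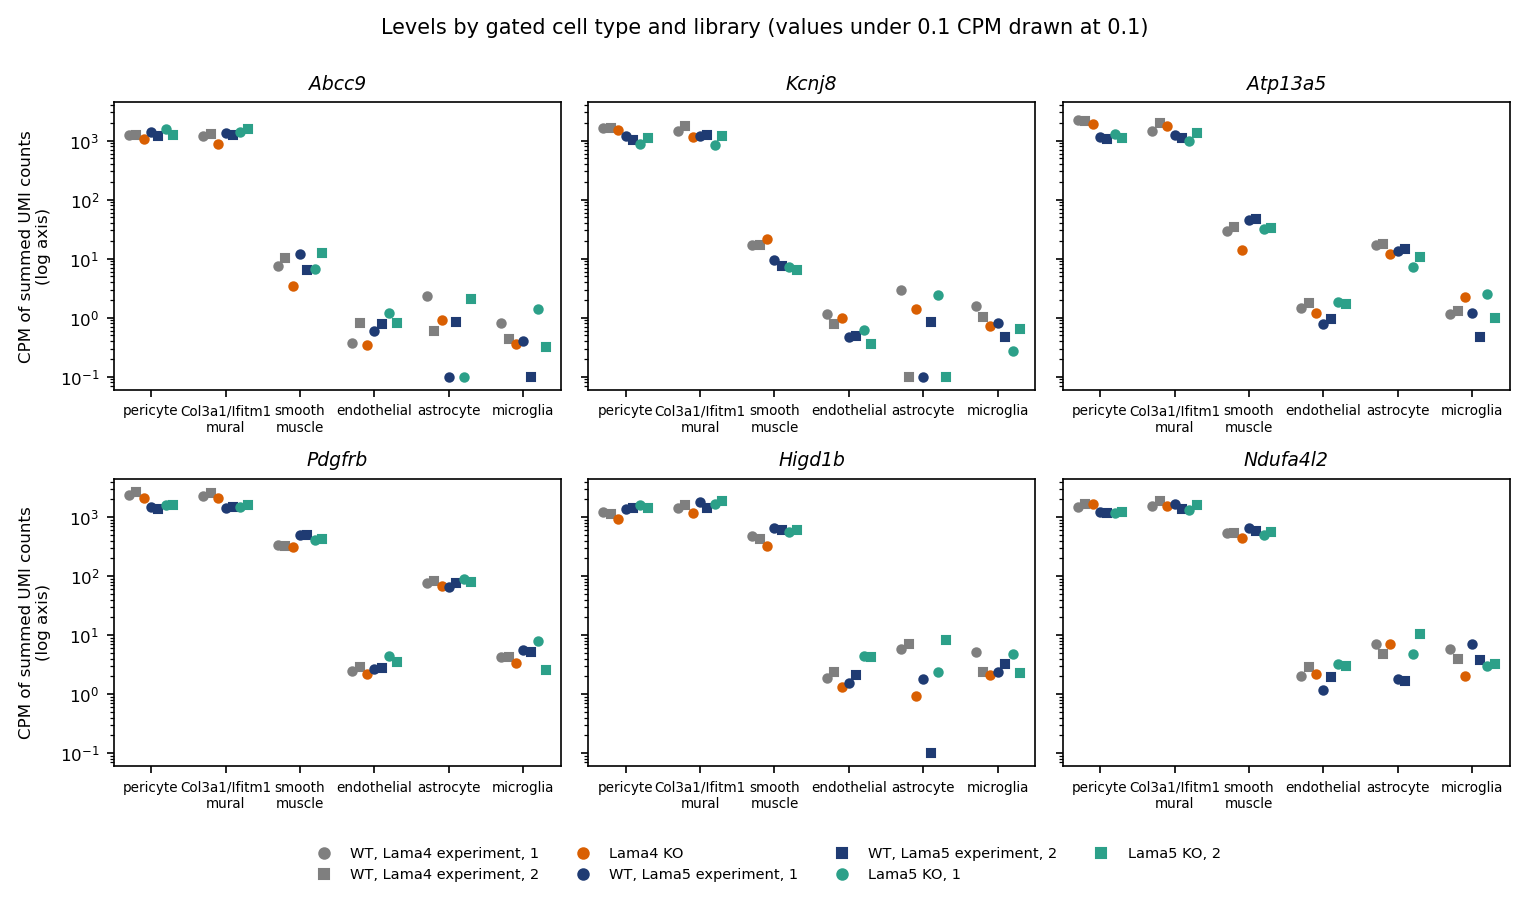
CPM of summed UMI counts (log axis) of 6 genes in 6 gated cell types, 1 point per library. Kcnj8 stays at or above 879 CPM in pericytes of every library and at or below 21.5 CPM in smooth muscle, whereas Pdgfrb, Higd1b and Ndufa4l2 are also high in smooth muscle.

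Pericytes also held mRNA for tissue-specific relatives of common mitochondrial proteins. Ndufa4l2, a relative of the respiratory chain subunit NDUFA4, made up 91.0% to 96.8% of the summed counts of both genes in pericytes, 50.6% to 67.4% in smooth muscle and 0.298% to 0.821% in endothelial cells, while the Col3a1 and Ifitm1 mural cells had 93.7% to 99.6%. Higd1b made up 92.2% to 96.4% of Higd1b and Higd1a, against 68.7% to 86.1% and 1.20% to 3.76%, and 94.7% to 98.1% in the Col3a1 and Ifitm1 mural cells. Cox4i2, the hypoxia-linked isoform of a cytochrome c oxidase subunit, made up 39.2% to 49.2% of Cox4i2 and Cox4i1, against 10.6% to 14.4% and 0.156% to 0.286%, and 46.5% to 53.2% in the Col3a1 and Ifitm1 mural cells. Each of these 3 shares was higher in pericytes than in smooth muscle, and higher there than in endothelial cells, in every library, while the ranges of pericytes and the Col3a1 and Ifitm1 mural cells overlapped.

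Of the genes that the mutations target, Lama4 (ENSMUSG00000019846; chromosome 10, plus strand, 38965515 to 39110188 in GRCm38) had 98 and 88 counts in WT pericytes and 1 in the Lama4 KO library, or 257, 295 and 3.05 CPM. The KO value is 1.11% of that in both WT libraries together (exact 95% interval 0.0281% to 6.29%, counting error only). Lama5 (ENSMUSG00000015647, chromosome 2, 180176373 to 180225859, minus strand) had 1 and 1 counts in WT pericytes and 0 and 0 in the Lama5 KO, where 0 counts allow up to 14.3 and 15.9 CPM, so no difference was detectable at this depth. In endothelial cells, the target of Tek-Cre, Lama5 stood at 41.8 and 41.2 CPM (WT) and 22.1 and 24.4 CPM (KO), and in smooth muscle at 147 and 131 against 133 and 152.

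Pericytes held more laminin α4 and α2 mRNA per UMI than smooth muscle or endothelial cells did. In the WT, Lama4 ran at 140.2 to 295 CPM in pericytes, 29.8 to 45.6 in endothelial cells and 43.0 to 46.9 in smooth muscle. Lama2 (chromosome 10, 26980036 to 27619758, minus strand) stood at 440.0, 436 and 406 CPM in the Lama4 experiment and at 271, 286, 289.8 and 164 in the Lama5 experiment, with the second Lama5 KO library the lowest. Endothelial cells had 0.361 to 1.94 CPM of it and smooth muscle 19.5 to 58.6, while the Col3a1 and Ifitm1 mural cells had 221 to 360.2. Lama5 had the opposite order, with 4.67 to 23.5 CPM in WT pericytes and 131 to 153 CPM in WT smooth muscle. The γ chains were high in pericytes: Lamc1 at 455 to 815 CPM and Lamc3 at 206 to 339, against 43.9 to 69.0 and 8.90 to 10.1 in endothelial cells. The β chain Lamb2 stood at 317, 359 and 265 CPM in the Lama4 experiment and at 108, 143, 99.8 and 132 in the Lama5 experiment, and Lamb1 at 79.4 to 198. Lama1, a further α chain, had 0 counts in all 3 libraries of the Lama4 experiment and 6, 25, 3 and 5 in the Lama5 experiment. In the trimmed gate these were 0, 0, 0 and 1, so nearly all Lama1 counts lay in the cells it removes.

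**Figure D2:**
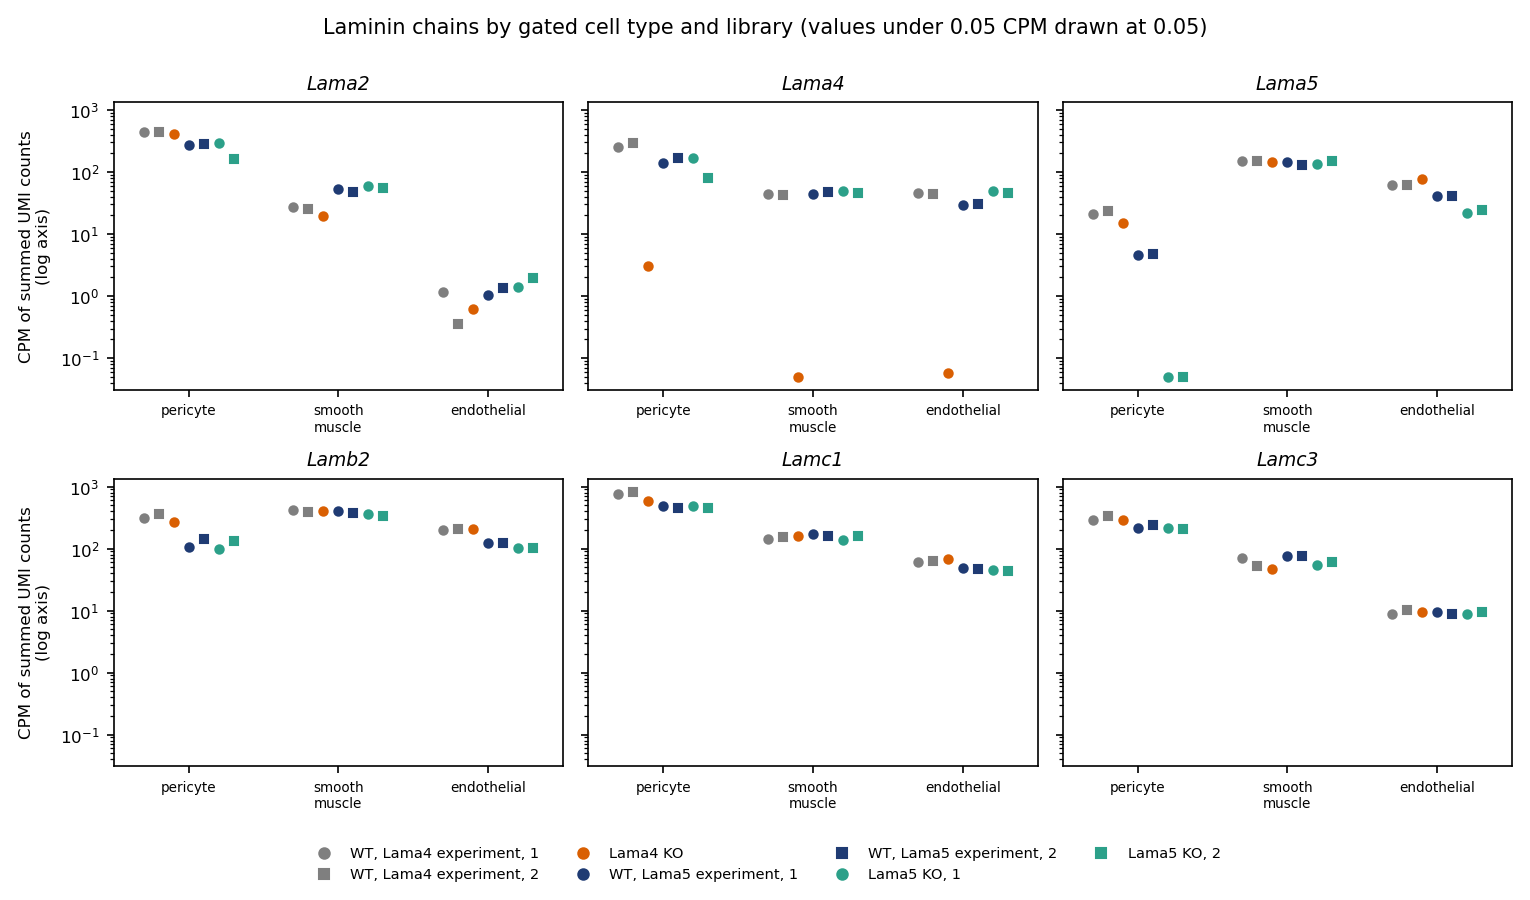
CPM of summed UMI counts (log axis) of 6 laminin chains in pericytes, smooth muscle and endothelial cells, 1 point per library. Lama2, Lamc1 and Lamc3 are highest in pericytes in every library and Lama5 in smooth muscle, and the Lama4 KO library drops to 3.05 CPM of Lama4 in pericytes.

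Among laminin receptors, the collagen and laminin integrin subunit Itga1 led at 1401, 1443 and 1427 CPM in the Lama4 experiment and at 1093 to 1211 in the Lama5 experiment. Its partner Itgb1 stood at 613 to 762 CPM, dystroglycan (Dag1) at 219.7 to 337, Bcam, a laminin α5 receptor, at 117 to 204, and the muscle-type integrin subunit Itga7 at 80.8 to 165. Endothelial cells had 396 to 506 CPM of Itga1 and 0.515 to 1.34 of Itga7. Itga6, the laminin receptor subunit of endothelium, had at most 7 counts in any library. Of the 21 receptor genes listed, 12 had enough counts to be tested in the Lama5 experiment.

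The share of pericytes did not separate the Lama5 KO from its WT. Of kept cells, 1.13% and 1.01% in the KO libraries were pericytes against 0.958% and 1.03% in the WT libraries, or 1.07% ± 0.0863 against 0.995% ± 0.0521 (SD, n = 2 libraries each). The difference of 0.0713 points was smaller than the range within either group (exact two-sided permutation p 0.667, where 2 against 2 libraries cannot go below 0.333). Set against the mural cells alone the shares were 17.7% and 17.7% (exact permutation p 1), and per 100 endothelial cells 1.78 and 1.57 (exact permutation p 0.333). In the Lama4 experiment pericytes made up 2.56% and 2.29% (WT) and 2.41% (KO) of kept cells (exact Clopper-Pearson interval 2.02% to 2.86%), which lies between the WT values. The yield of dissociation and the number of cells in the tissue cannot be told apart.

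In pericytes of the Lama5 KO hardly any gene differed from the WT beyond the spread between libraries. The test (edgeR quasi-likelihood on summed counts, Benjamini-Hochberg adjusted p under 0.05) called 3 of 3989 genes, or 0.0752%, all higher: Nr4a1, Gm42418 and Ttr. At an unadjusted p under 0.05 it gave 256 genes (6.42%), and DESeq2 called 2, Gm42418 and Ttr. Over all genes the median SE of the log2 difference was 0.350, and 0.244 for the 1741 genes at 100 CPM or more, of which 20 differed by more than 1 log2 unit. Without the second KO library no gene was called (120 at an unadjusted p under 0.05), and without each of the other 3 libraries 26 to 54 were, so the count rests on single libraries.

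Nr4a1 (ENSMUSG00000023034, chromosome 15, 101254269 to 101274795, plus strand), an immediate-early nuclear receptor switched on within minutes by calcium, cAMP and mechanical signals, was the one regulatory gene among the 3. It is shown with the promoters of Fos and Hspa1a, which are the other immediate-early and heat shock genes that the results turn on. The 250 bases before each annotated RefSeq start (GRCm38.p6) are printed 5′ to 3′ on the gene's strand; capitals mark TGACG, the core of the CREB and ATF site, on either strand in Nr4a1 and Fos (CGTCA where the match is on the other strand), and GAANNTTC, the core of the heat shock element, in Hspa1a.
Nr4a1, chr15:101266596-101266845, plus strand: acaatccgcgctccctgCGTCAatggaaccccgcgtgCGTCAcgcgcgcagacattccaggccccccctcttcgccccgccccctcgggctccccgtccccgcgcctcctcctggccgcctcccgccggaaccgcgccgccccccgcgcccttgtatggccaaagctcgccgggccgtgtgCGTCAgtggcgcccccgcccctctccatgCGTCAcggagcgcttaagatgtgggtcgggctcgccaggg
Fos, chr12:85473640-85473889, plus strand: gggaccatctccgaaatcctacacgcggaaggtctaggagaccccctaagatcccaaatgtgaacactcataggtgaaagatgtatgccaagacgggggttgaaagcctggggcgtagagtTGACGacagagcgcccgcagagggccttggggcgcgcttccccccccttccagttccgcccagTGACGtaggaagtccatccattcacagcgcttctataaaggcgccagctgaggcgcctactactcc
Hspa1a, chr17:34972157-34972406, minus strand: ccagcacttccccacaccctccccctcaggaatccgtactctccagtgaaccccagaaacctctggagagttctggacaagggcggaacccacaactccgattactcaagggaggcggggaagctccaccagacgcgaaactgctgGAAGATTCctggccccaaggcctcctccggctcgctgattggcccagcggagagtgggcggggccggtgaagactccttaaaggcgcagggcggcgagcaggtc
The Nr4a1 window held 4 TGACG matches, at 233, 213, 69 and 40 bases before the start, and that of Fos held 2, at 129 and 66. Hspa1a held 1 GAANNTTC match, at 104. Of 32841 promoter windows of this length 17.8% held TGACG and 6.70% held GAANNTTC on either strand, so a match is common and is a description only. The Nr4a1 window lies within an intron of a longer annotated Nr4a1 transcript.

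Nr4a1 had 34 and 30 counts in WT pericytes against 86 and 76 with the Lama5 KO, or 159 and 143 against 409 and 402 CPM. All KO values lay above all WT values, and the log2 difference was 1.47 (SE 0.194, edgeR adjusted p 0.00486). The size moved with the cells that carried fibroblast markers: 27 of the 86 counts of the first KO library and 14 of the 76 of the second lay in their 4 such cells each. Without those cells the counts were 33 and 28 against 59 and 62, the log2 difference 1.01 and the edgeR adjusted p 0.204. In the trimmed gate they were 30 and 28 against 47 and 53 (log2 0.82, adjusted p 0.261). The groups still did not overlap, while the call was lost. It was also lost with DESeq2 (adjusted p 0.113), with limits of 10 on all other cell types' markers (0.314) and without the second KO library (0.933); over the other alternatives the adjusted p ran from 3.77e-06 to 0.0378.

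The other called genes were higher in endothelial cells too. Gm42418 (ENSMUSG00000098178, chromosome 17, 39846958 to 39848788, plus strand), a noncoding locus that overlaps AY036118 on the opposite strand, stood at 25741 and 28748 CPM in WT pericytes against 51453 and 53067 (log2 0.99, SE 0.0508, edgeR adjusted p 1.57e-07). Endothelial cells went from 34884 and 34060.5 to 62515 and 68154 CPM. Ttr, the transthyretin gene, had no count in either WT library against 26 and 19 with the KO, at least 15.9-fold higher against a floor of 3 counts over the WT group (edgeR adjusted p 0.00486). Endothelial cells went from 0.434 and 0.162 to 80.0 and 72.5 CPM of Ttr. Choroid plexus cells numbered 1 and 0 in the WT libraries, and the part of free RNA in pericytes was not tested.

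The groups of genes that define pericytes did not pass the test. Of 27 pericyte identity genes tested, 0 were called, and 3 had an unadjusted edgeR p under 0.05, as did 6.42% of all genes. The median log2 difference was 0.07 against -0.0004 for all genes, and the lowest edgeR adjusted p was 0.648. The list ran from -0.75 for the transcription factor Foxs1 (39 and 41 counts against 18 and 25) to 0.57 for the adhesion molecule Mcam (35 and 33 against 51 and 41). Pdgfrb stood at 1505 and 1376 CPM against 1587 and 1599 (log2 0.19), and Cspg4, the proteoglycan NG2, at 495 and 499.8 against 437 and 450.0 (-0.12). Of 6 laminin chains tested 0 were called (median -0.15); they ran from -0.50 for Lamb1 to 0.04 for Lamc1. Lama4 itself stood at 140.2 and 171 against 166 and 79.4 CPM, with 1 KO library within the WT range and 1 below it.

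Nothing was called either among 12 matrix receptors (median 0.02), 14 other basement membrane genes (-0.10), 13 focal adhesion genes (0.08), 12 genes of the YAP and TAZ pathway (0.10), 15 of TGF-β and BMP signalling (0.26), 8 of Notch (0.04), 7 of PDGF signalling (-0.30) or 16 channels and pumps (0.12). Unadjusted p-values under 0.05 numbered 1, 2, 1, 2, 1, 0, 1 and 2 in these lists, against 6.42% of all genes. The 10 solute transporters had a median of -0.30, with 1 above 0, 0 called and 2 at an unadjusted p under 0.05. Vegfa, the endothelial growth factor, had 26 and 25 counts against 10 and 12 (log2 -1.07, adjusted p 0.622), and 15 and 7 against 7 and 6 in the trimmed gate. Of the 23 immediate-early and stress genes tested 1 was called, Nr4a1, against the 0.0752% of all genes; the median was 0.13 and 8 had an unadjusted p under 0.05, as did 6.42% of all genes.

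The trimmed gate called 8 genes of 3228 in place of 3: Gm42418, Ttr, AY036118, Lars2, Hbb-bs, Hba-a1, Timp3 and Fosb. Timp3, an inhibitor of matrix metalloproteinases, and Fosb, a partner of Jun, were picked out here after their values were seen. Timp3 had 34 and 34 counts against 65 and 80 (log2 1.12, adjusted p 0.00712), against a log2 difference of 0.26 (adjusted p 0.838) before trimming. The cells removed held another 49 and 90 counts in the WT libraries, and 57 and 25 in the KO libraries. Fosb had 134 and 135 against 221 and 170 counts (log2 0.56, adjusted p 0.0290), and 0.83 (adjusted p 0.104) before trimming. Without the cells with fibroblast markers neither was called (edgeR adjusted p 0.132 for Timp3, 0.247 for Fosb). With limits of 10 on all other cell types' markers neither was called (0.0835 and 0.333). Fosb was called with Vtn at 60 UMIs per 10000, no filter on low counts, the replicate block and 2 of 4 markers in place of Vtn.

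**Figure D3:**
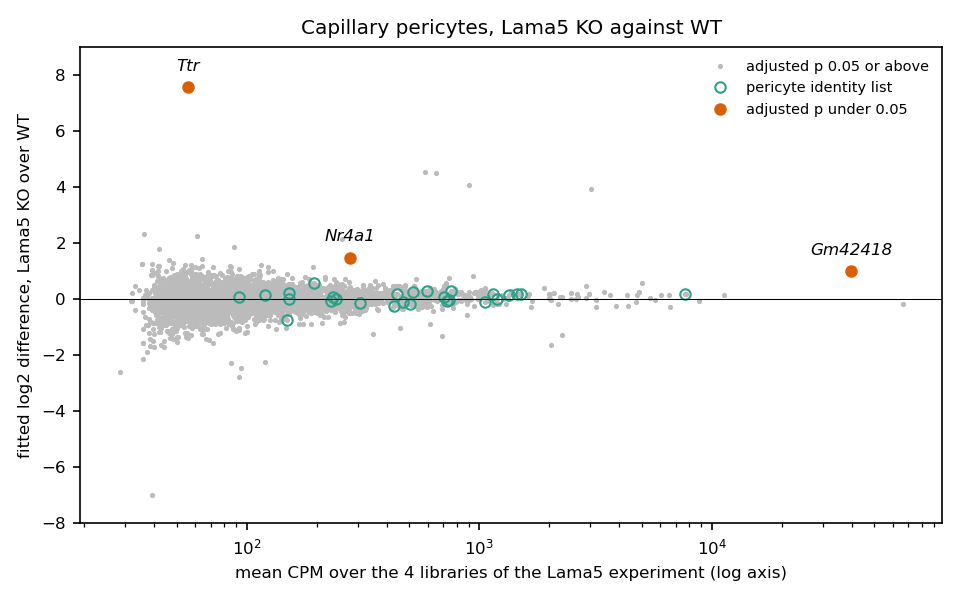
Fitted log2 difference, Lama5 KO over WT, against mean CPM over the 4 libraries (log axis) for the 3989 genes tested in pericytes. The 3 called genes are labelled (the fitted value of Ttr, with no WT count, is no bound), and the 27 pericyte identity genes (open circles) lie between -0.75 and 0.57.

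Whether the Lama5 KO effect differed between pericytes and endothelial cells was tested as an interaction of cell type and genotype within the libraries. It called 14 of 13164 genes, or 0.106%: 6 with a higher and 8 with a lower effect in pericytes, among them the gate gene Vtn, which is no result. Nr4a1 differed by 1.57 (SE 0.232, edgeR adjusted p 2.69e-04), and endothelial cells stood at 547 and 536 CPM (WT) and 502 and 502 CPM (KO). Without the cells with fibroblast markers the difference was 1.10 (adjusted p 0.0115), and in the trimmed gate 0.90 (adjusted p 0.349). Over the other alternatives its adjusted p ran from 6.46e-08 to 0.00128.

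Genes abundant in pericytes made up most of the lower side, although their own levels moved little. Rgs5, the regulator of G-protein signalling long used as a pericyte marker, stood at 7787 and 6797 CPM in WT pericytes against 8186 and 7909, while endothelial cells went from 29.2 and 26.4 to 75.1 and 59.8 CPM (difference -1.09, adjusted p 7.01e-05). Higd1b stood at 1369.6 and 1423 against 1615 and 1435 CPM in pericytes and at 1.54 and 2.11 against 4.48 and 4.33 in endothelial cells (-1.12, adjusted p 0.0309). Casq2, calsequestrin, stood at 369 and 343 against 347 and 281 CPM, and at 0.158 and 0.203 against 1.29 and 0.968 in endothelial cells (-2.73, adjusted p 0.0351). Meg3 (-1.32) and Gm13889 (-1.12) had the same form. In these 5 the endothelial levels lay far below those of pericytes. They were picked by a lower interaction, so with pericyte levels that moved little, a higher endothelial level in the KO follows from the choice. It is no separate result, and the part of free RNA was not tested. Of 28 pericyte identity genes 2 were called, Rgs5 and Higd1b, both lower, against 0.106% of all genes called in either direction. With RLE scaling Rgs5 stayed called, while Higd1b, Casq2, Meg3 and Gm13889 did not.

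For the Lama4 KO, 1 library stood against 2 WT libraries, so no test was made. A gene counted as different when it reached 50 CPM, its Poisson interval in the KO lay outside both WT intervals and the log2 ratio of CPM (5 CPM added) was at least 1 in size. The rule passed 16 genes as higher (0.403% of 3967) and 10 as lower (0.252%), 26 in all. It passed 19 when the WT libraries were set against each other, and the SD of log2 ratios over genes was 0.467 for the KO and 0.382 between the WT libraries. Library against library, the KO differed from the first WT library by 57 genes and from the second by 47, both more than the 19 between the WT libraries.

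Lama4 was the largest fall, at -5.13. Other genes that were lower were Nr1d1, a circadian repressor, with 31 and 26 against 7 counts (-1.76), Zcchc9 (-1.56), mt-Atp8 (-1.41), the splicing factor U2af1 (-1.24), the heat shock gene Hspa1b with 111 and 123 against 49 counts (-1.21), Mtcl1 (-1.18), Crip1 with 96 and 96 against 41 counts (-1.17) and Zfp703 (-1.06). In the trimmed gate Zcchc9 (-1.38), U2af1 (-1.14), Mtcl1 (-1.05) and Zfp703 (-0.92) did not pass the rule. Of the genes named here, none except Lama4 had over 50% of its KO counts in 1 cell.

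On the higher side most of the genes came from a few cells. In 12 of the 16 a single cell held over 50% of the KO counts. The haemoglobin genes Hba-a2 (6.21), Hbb-bs (6.15), Hba-a1 (5.75) and Hbb-bt (5.58) turned to -1.07, -1.66, -2.99 and -1.86 in the trimmed gate. That gate sets limits on haemoglobin, Ttr and oligodendrocyte transcripts, so falls of such genes follow from it. Ttr had 124, 98 and 4841 counts, 4010 of them in 1 cell, and still stood at 2.86 after trimming. All 129 KO pericytes had a UMI for it, and endothelial cells of the KO library stood at 1444 CPM. Choroid plexus cells numbered 24 and 23 in the WT libraries and 115 in the KO library, and the part of free RNA was not tested. Other choroid plexus or epithelial transcripts were Enpp2 (4.09), 1500015O10Rik (4.72), Folr1 (3.29), Kcnj13 (2.95) and Igfbp2 (3.43), with 61.9% to 80.8% of their KO counts in 1 cell. Chchd10 (1.85) and the myelin gene Mbp (2.20) fell to 0.72 and 0.70 after trimming. The trimmed gate passed 14 genes, 7 in each direction, of which 11 had passed before. Among the 11 was Hbb-bs, which had passed as higher and now passed as lower. Ttr and Enpp2 (1.66 after trimming) still passed as higher. Junb, Egr1 and Nr4a1 stayed: Nr4a1 had 29 and 20 against 60 counts, at most 8 in 1 cell (1.30, or 1.39 after trimming). Junb had 69 and 82 against 184 (1.28), with 79 in 1 cell, and Egr1 41 and 27 against 82 (1.29), with 33 in 1 cell. With 1 KO library, these ratios have no replicate check.

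**Figure D4:**
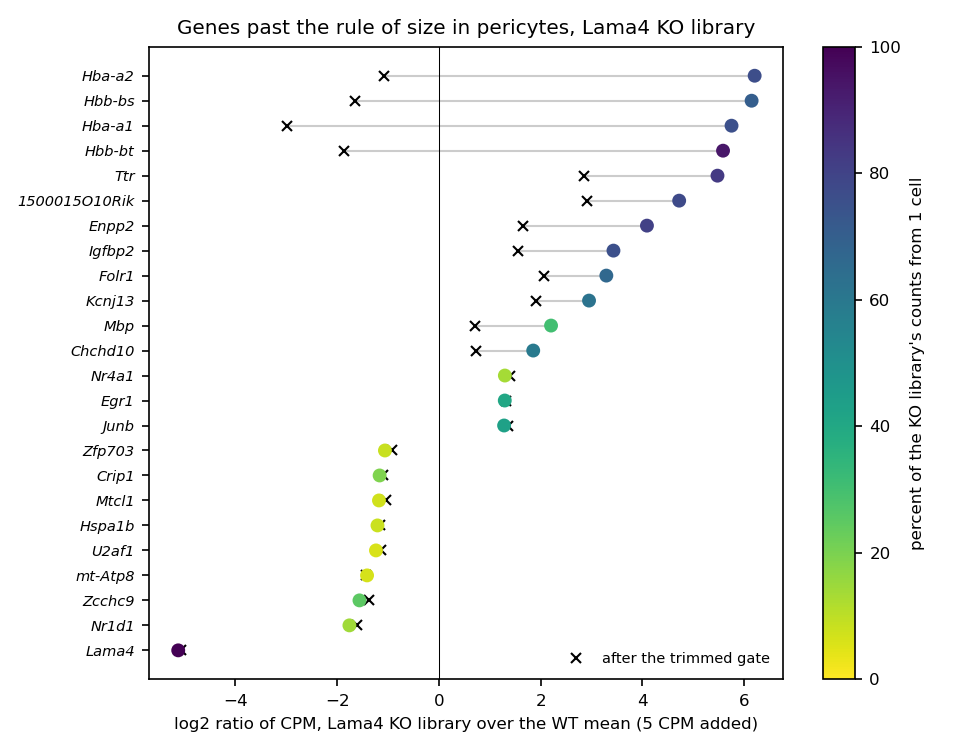
log2 ratio of CPM (5 CPM added) of the Lama4 KO library over the WT mean for 24 of the 26 genes past the rule of size; colour gives the share of KO counts from 1 cell and crosses the value in the trimmed gate. The 4 haemoglobin genes, which the trimmed gate itself limits, change sign after trimming, while Junb, Egr1 and Nr4a1 stay near 1.3.

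By list, 0 of 27 pericyte identity genes passed in the Lama4 KO library (median -0.09, all genes -0.02). Pdgfrb stood at 2370.2 and 2651 against 2101 CPM, Cspg4 at 964 and 949.6 against 863, and Notch3 at 864 and 825 against 729. Of 6 laminin chains 1 passed, Lama4, and the median was -0.31: Lamb2 stood at 317 and 359 against 265 CPM, Lamc1 at 757 and 815 against 588 and Lama2 at 440.0 and 436 against 406. Of 20 immediate-early and stress genes 3 were higher (0.403% of all genes) and 1, Hspa1b, was lower (0.252%).

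The contrast with the most calls in pericytes was between the WT groups of the 2 experiments, which bear no mutation. It called 372 of 4914 genes as higher in the Lama5 experiment (7.57%) and 208 as lower (4.23%). Experiment, pool and the cells' makeup cannot be told apart here. Mitochondrial transcripts moved with it, at a median of 7.47% and 8.30% of a pericyte's UMIs in the Lama4 experiment's WT against 4.20% and 4.01%.

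Immediate-early and heat shock genes, which answer stress and tissue dissociation, were higher almost as a block. Of 23 tested, 21 were called higher against 7.57% of all genes, with a median log2 difference of 2.20, and 23 of 23 in the trimmed gate (median 2.34). DESeq2 kept 18 of the 21 calls, and 15 stayed with 2 of the 4 markers in place of Vtn, where Socs3 turned (-1.15). Hspa1a, the inducible HSP70, stood at 411 and 544 CPM in the Lama4 experiment's WT and at 6941 and 7744 in that of the Lama5 experiment (log2 3.999, SE 0.151, edgeR adjusted p 1.74e-07). Jun, a subunit of the AP-1 factor, went from 375 and 517 to 5679 and 5988 CPM (3.77) and its partner Fos from 285 and 409 to 1977 and 1861 (2.53). Atf3 went from 78.6 and 26.8 to 757 and 652 CPM (3.70) and Klf4 from 36.7 and 43.6 to 477 and 466 (3.60). Nr4a1 went from 76.0 and 67.1 to 159 and 143 CPM (1.11, SE 0.246, adjusted p 0.0151). Its call was lost with DESeq2 (adjusted p 0.228), with 2 of the 4 markers in place of Vtn (0.106) and without the second WT library of the Lama4 experiment (0.0750), and over the other alternatives its adjusted p ran from 0.00333 to 0.0399. Nfkbia (0.56) and Rhob (0.40) did not pass. All 23 genes were higher in both libraries of the Lama5 experiment's WT than in both of the other WT, as were 25.8% of the 4914 genes tested, while 31.1% were lower in both.

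In other cell types the same 23 genes were counted against the same 4914, by CPM in both libraries of each WT group. In endothelial cells 20 were higher in the Lama5 experiment (28.9% of all genes) and 2 lower (55.7%), and in astrocytes 18 were higher (26.9%) and 3 lower (29%). In smooth muscle 10 were higher (42.7%) and 12 lower (26.1%), and in microglia 10 were higher (52.1%) and 10 lower (29.1%), so the counts on the higher side were near or below the background in both types. Hspa1a moved the other way in those cells: from 2736 and 2935 to 841 and 867 CPM in endothelial cells and from 6712 and 6647 to 609 and 521 in microglia. In endothelial cells Jun was higher, from 1853 and 1889 to 4585 and 4703 CPM. These differences between cell types were not tested.

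**Figure D5:**
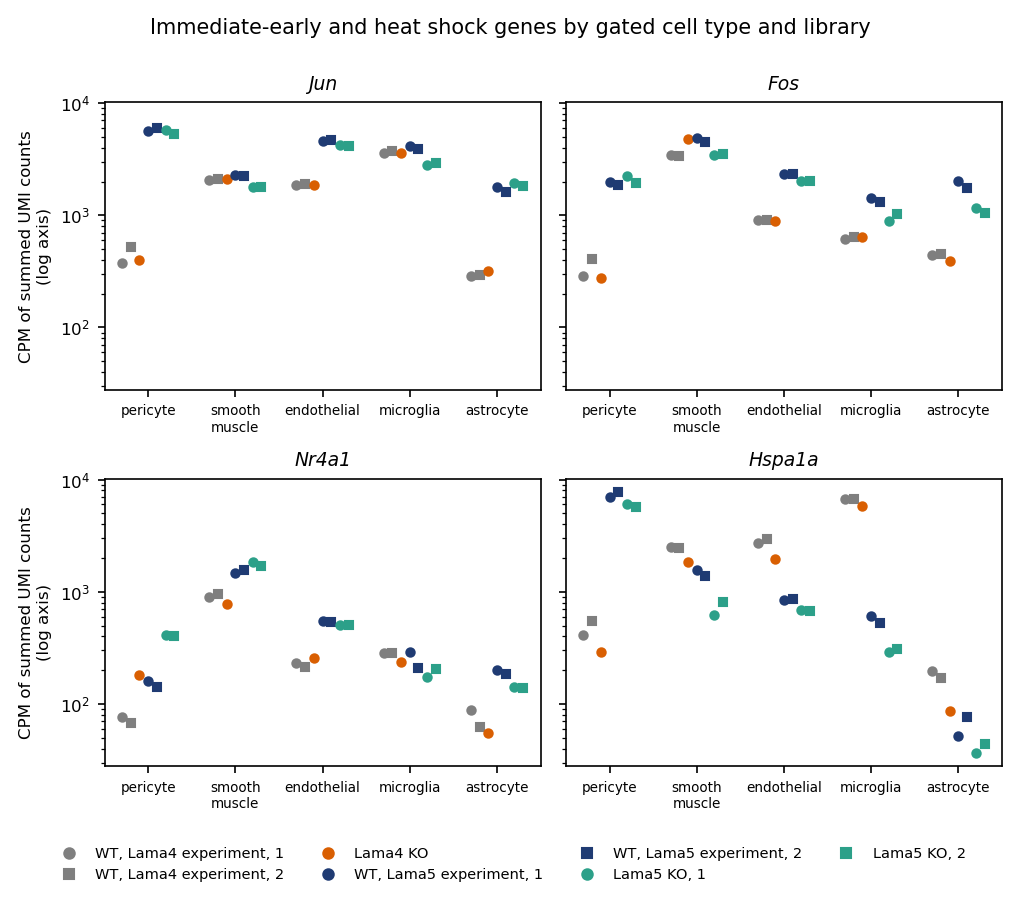
CPM of summed UMI counts (log axis) of Jun, Fos, Nr4a1 and Hspa1a in 5 gated cell types, 1 point per library. Pericytes of the 4 libraries of the Lama5 experiment hold 5315 to 5988 CPM of Jun against 375 to 517 in the other experiment, while Hspa1a in microglia and endothelial cells is lower there than in the Lama4 experiment.

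Some genes of signalling pathways were called as well, against 7.57% of all genes on the higher side and 4.23% on the lower. Of 16 TGF-β and BMP genes 5 were called higher, among them Id1 (2.43), Id3 (1.91), the inhibitor Smad7 (1.83) and the ligand Bmp4 (1.61). Of 12 YAP and TAZ genes Ccn1 (3.55), Ccn2 (2.78) and Amotl2 (1.57) were higher; Ccn2 had 11 and 3 counts left in the trimmed gate, where it was not tested. Of 8 Notch genes the targets Nrarp (1.53) and Hes1 (1.18) were higher and the receptor Notch3 lower (-0.76). Of 14 hypoxia and glycolysis genes Ankrd37 (2.65), Adm (2.64), Vegfa (2.30) and Tpi1 (0.73) were higher and Pkm lower (-0.53). With 2 of the 4 markers in place of Vtn, 4 of the 5 TGF-β and BMP calls, 1 of 3 in the YAP and TAZ list, 1 of 3 in Notch and 2 of 5 in hypoxia and glycolysis stayed, and Vegfa turned (-0.048). DESeq2 kept 2, 2, 3 and 3 of them. The interferon gene Isg15 had 1 and 2 counts against 17 and 16 (4.05), the only one called of 5 tested.

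In the same contrast 12 of 27 pericyte identity genes were called lower (background 4.23%) and 0 higher, with a median of -0.54. Among the 12 were Mcam (-1.06), Atp13a5 (-0.95), Slc6a20a (-0.94), P2ry14 (-0.91), Cspg4 (-0.89), Dlc1 (-0.81), Ggt1 (-0.79), Notch3 (-0.76), Pdgfrb (-0.75), the folate carrier Slc19a1 (-0.71) and Kcnj8 (-0.49). Foxs1 (0.45), Rgs5 (0.20), Abcc9 (0.11) and Cox4i2 (-0.07) did not pass. The trimmed gate called 11 of these lower, without Kcnj8, and Rgs5 (0.38) and Higd1b (0.49) higher. When at least 2 of the 4 markers took the place of Vtn in the gate, 1 of the 12, Slc6a20a, stayed called; those 4 markers, Atp13a5, Kcnj8, Abcc9 and Pdgfrb, are themselves on the list, so that gate chose cells by genes of the list. All 12 calls were kept with Vtn at 60 UMIs per 10000, with the other cell types' markers under 10 and with at least 1000 genes and under 10% mitochondrial UMIs per cell, and DESeq2 kept 9. Vtn, which set the gate, itself had a median of 196 and 199 UMIs per 10000 in the Lama4 experiment's WT and of 109 and 136 in the other.

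Of 6 laminin chains tested 4 were called lower in this contrast (background 4.23%), Lamb2 (-1.38), Lama4 (-0.77), Lamc1 (-0.68) and Lama2 (-0.60), and the same 4 passed in the trimmed gate; Lamb1 (-0.41) and Lamc3 (-0.42) did not pass. DESeq2 kept 2 of these calls, the gate with 2 of the 4 markers in place of Vtn kept 1 (Lamb2), and leaving out 1 library kept 2 to 4. Among 17 channels and pumps Atp1b3 was called higher (0.85), against 7.57% of all genes, and 7 were called lower, against 4.23%. The 7 included Itpr1, the calcium release channel of the endoplasmic reticulum (-1.59), Atp13a5, Ano1 (-0.66), Itpr2 (-0.57), the chloride cotransporter Slc12a2 (-0.49) and Kcnj8. In the trimmed gate 3 were lower, Itpr1 and Atp13a5 among them, and none higher, and DESeq2 kept 2 of the 8 calls. Among 11 solute transporters the amino acid carrier Slc38a2 was higher (2.38), and Slc38a11 (-1.17), Slc6a20a and Slc19a1 were lower, against the same shares of all genes. The 1 higher call in each of these lists, channels and pumps and solute transporters, is near the background.

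The largest differences upward were mostly in fibroblast transcripts. Lum and Col15a1 had no counts in the Lama4 experiment's WT against 14 and 55 (Lum) and 11 and 57 (Col15a1), at least 36.9 and 36.3 times higher, and Cemip had 21 and 39, at least 32.1 times. Pdgfra, Col1a1, Snhg11, Col12a1, Slc22a6 and Cyp1b1 had 0 or 1 count in each library of the Lama4 experiment's WT. With 2 of the 4 markers in place of Vtn, Lum (-7.44) and Snhg11 (-7.45) turned. None of these 9 had enough counts left to be tested in the trimmed gate. Apod went from 26 and 26 to 235 and 1132 counts (5.44) and after trimming from 20 and 26 to 22 and 19 (0.81, adjusted p 0.110). Sertad1, a cell cycle regulator, had 2 and 1 against 56 and 59 counts (5.85, SE 0.367, adjusted p 4.52e-06) and 5.89 after trimming.

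The largest falls were of genes at low counts. Pde4c, a cAMP phosphodiesterase, went from 269.8 and 258 to 70.1 and 76.2 CPM (-1.80, SE 0.218, adjusted p 4.78e-04). Selenoo (-2.22), the mitochondrial translation factor Guf1 (-2.14), Ttll3 (-1.95), the lipoprotein receptor Scarb1 (-1.88), Stard9 (-1.85), Zzef1 (-1.82), Ptpn13 (-1.78), Usp40 (-1.63), Zfp950 (-1.61), Zswim8 (-1.60) and Nostrin (-1.60), which binds nitric oxide synthase, were also lower, and all 12 passed the test in the trimmed gate. Transcripts over 10 times higher in another gated cell type, and so possibly free RNA, included Igfbp2 (5.40, or -1.81 with 2 of the 4 markers in place of Vtn) and Maf (4.62) on the higher side, and Tyrobp (-4.17), Gstp1 (-3.19) and Ttr, with 124 and 98 counts against none, on the lower.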

How the data were processed

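The authors deposited, per the file headers, raw UMI counts per gene and cell in 10x matrices (header software_version 3.1.0), not normalized. The submitters' processing notes name Cell Ranger, Seurat 3.1 and mm10 with no settings. 1 matrix stands for both identical Lama4 KO deposits. Barcodes were filtered and gated as the text gives; counts of gated cells were summed per library and scaled to CPM. Other cell types were gated the same way, with marker limits on UMIs per 10000. Groups were compared with edgeR 4.0.16 (limma 3.58.1, R 4.3.3; filterByExpr, TMM factors, quasi-likelihood test, Benjamini-Hochberg over all genes tested), with DESeq2 1.42.0 as an alternative; the interaction had the library as a block. Shares were compared by exact permutation (scipy 1.17.1), and intervals are exact (95%, counting error only). Scripts were tested on simulated data.

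The members and gene lists were chosen with earlier results of these data known. Named genes were the 12 largest called differences in each direction (at least 20 CPM, groups not overlapping, gate genes left out, at most 6 possible free RNA genes apart), 6 for the interaction, 8 for the Lama4 KO library, the 15 highest level ratios, and members of the lists. A few genes that these rules select are not reported here. The gate without fibroblast-marker cells, the trimmed gate and the levels without the Col3a1 and Ifitm1 mural cells were added after seeing the data. Positions are from GENCODE M21 (GRCm38), which held 99.6% of the gene identifiers.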

Additional observations from a re-analysis of the deposited data

Results flagged for a closer look

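The effect of the Lama5 KO differed between pericytes and endothelial cells, by the interaction test, for the genes that follow; all values are log2 differences, pericytes minus endothelial cells. Nr4a1 differed by 1.57, or by 0.90 in the trimmed gate (edgeR adjusted p 0.349). Casq2 (-2.73), Meg3 (-1.32), Gm13889 (-1.12) and Higd1b (-1.12) were lower. Their endothelial levels lay far below those of pericytes, and a higher endothelial level in the KO is no separate result. With RLE scaling the interaction called only Rgs5, Slc1a2, Vtn and Nr4a1. Meg3 stood at 612 and 562 CPM in WT pericytes against 646 and 641, and at 4.02 and 3.29 against 15.5 and 5.76 CPM in endothelial cells. Gm13889 stood at 706 and 599.7 against 575 and 556 CPM, and at 2.96 and 4.06 against 7.81 and 5.66 CPM in endothelial cells. Spp1, osteopontin, differed by -2.35 and stood at 556 and 1589.7 CPM against 532 and 884, with the second WT library the highest; without the cells with fibroblast markers the difference was -0.63 (edgeR adjusted p 1).

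A further 5 such differences rest on few cells or lie in genes of other cell types. Hbb-bt (4.19) and Hba-a2 (3.97) had 99.8% and 98.3% of the counts of the second KO library in 1 cell. Ptgds, prostaglandin D synthase, differed by -1.43, with 4291 and 1899 CPM in the WT libraries against 1416 and 535, of which 48.7% to 71.7% came from 1 cell in each. Slc1a2, the astrocyte glutamate transporter, differed by 3.02, and 87.4% of its counts in the second KO library came from 1 cell. Dclk1 differed by 3.16 on 9 and 0 against 15 and 25 counts.

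Between the WT groups, Hspa1a was higher in the Lama5 experiment by 3.999 and Hspa1b by 3.83 on the log2 scale in pericytes, while both libraries lay lower in endothelial cells. Hspa1b stood there at 1876 and 1951 CPM in the Lama4 experiment against 475 and 499 CPM. The difference between the cell types was not tested.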

How the results depend on the processing

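The count of genes called in the Lama5 KO, 3, was 20 with no filter on low counts, 23 with 2 of 4 markers in place of Vtn, 7 with Vtn at 60 UMIs per 10000 and 8 in the trimmed gate. It ran from 0 to 54 with 1 library left out, a fit in which the lone library is assumed to vary like the other group. With the replicate block it was 16, but same-numbered libraries did not deviate together (r 0.018 over 3519 genes, and -0.009 over 3731 genes in the WT groups), so the numbers are no pairing. The interaction count, 14, was 4 with RLE scaling (2 higher, 2 lower), 30 with no filter (15 higher) and 30 without the cells with fibroblast markers (16 higher). In the trimmed gate it was 16 (3 higher, 13 lower), and with Vtn at 60 it was 17 (3 higher, 14 lower). The count between the WT groups, 580, was 226 with DESeq2, 400 with the replicate block and 446 to 661 with 1 library left out. The Lama4 KO library had 14 genes past the rule in the trimmed gate and 47 to 57 with 1 WT library. The difference in share stayed between 0.0414 and 0.110 points, or 0.0103 and 0.132 with 1 library left out.

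In the trimmed gate the interaction turned for Hbb-bt (-2.17), Hba-a2 (-0.44), Ptgds (0.17) and Slc1a2 (-0.017), and with Vtn at 60 for Hbb-bt (-2.65), Hba-a2 (-0.69) and Slc1a2 (-0.11). With 2 of 4 markers in place of Vtn, the WT groups' difference turned for Lum (-7.44), Snhg11 (-7.45), Igfbp2 (-1.81), Slc12a2 (0.067), Socs3 (-1.15) and Vegfa (-0.048). In the Lama4 KO library Mbp turned with all other types' markers under 10 (-0.24), and in the trimmed gate Hbb-bt (-1.86), Hba-a1 (-2.99), Hbb-bs (-1.66) and Hba-a2 (-1.07) did. The trimmed gate itself limits haemoglobin genes and Slc1a2, and the limits of 10 apply to Mbp. The cause was not tested beyond the cells each gate drops. Of the other values, for single genes and a few counts of genes, 1333 were scored as unchanged, 207 kept direction and lost the call, and 54 moved. Of the 1333, 177 are ratios of the Lama4 KO library. Those counted as unchanged when they kept direction and shifted by no more than the SD of log2 CPM between the WT libraries. Whether the gene still passed the rule was not part of that score.

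Depth limits the Lama5 KO contrast: it rests on 82 to 94 pericytes a library, and the median SE of a log2 difference was 0.350.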

Other observations

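Some gene groups not yet described also held calls between the WT groups, against 7.57% of all genes on the higher side and 4.23% on the lower. Among 13 matrix receptors Itga8, an integrin subunit of mural cells, was higher in the Lama5 experiment (1.27, edgeR adjusted p 0.0418), in the trimmed gate too; the call was lost with DESeq2, the replicate block, no filter on low counts, at least 1000 genes with under 10% mitochondrial UMIs and 2 of 4 markers in place of Vtn, and without the second WT library of the Lama4 or the first of the Lama5 experiment. Among 15 other basement membrane genes Col15a1 and Col4a5 (2.36) were higher, and none was called in the trimmed gate. The focal adhesion genes Flna, filamin A (-0.75), and Tns1, tensin 1 (-0.55), were lower among 15, and Flna alone was called after trimming; neither call held with DESeq2, the replicate block or 2 of 4 markers in place of Vtn, nor without the cells with fibroblast markers. Of 2 Y-linked genes tested, Eif2s3y (-1.18, edgeR adjusted p 0.0389) was called lower and Ddx3y (-0.71, adjusted p 0.0518) was not; the Eif2s3y call was lost with DESeq2 and with the replicate block, and the sex makeup of the pools was not tested. In the Lama5 KO, where 6.42% of all genes had an unadjusted p under 0.05, no gene was called by edgeR among 12 of hypoxia and glycolysis (2 at an unadjusted p under 0.05), 8 angiogenic factors and receptors (1), 5 cytokines and adhesion molecules (1), 4 interferon genes (0) or 6 genes of the mitochondrial pairs (0).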
